A study of Felis catus with 2 samples.

Results

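The lens fibre membrane and beaded filament genes are BFSP1, BFSP2, MIP, LIM2 and GJA3, which encode proteins that fill the membrane and the cytoskeleton of the elongated fibre cells of the lens. Members were taken by an exact match of the gene name in the deposited table, which found 4 of the 5 genes among 32065 loci. MIP had no row of its own. It is listed only in a locus joined with its neighbour TIMELESS, so that value is given apart and is not counted as a member.

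The table holds 2 libraries of polyadenylated RNA from the iridocorneal angle of domestic cats (Felis catus). The affected library came from 1 cat with primary congenital glaucoma (PCG), and the normal library came from 1 healthy, unrelated cat. Both cats were 2 months old, and the dissected piece held the angle and ciliary body together with adjoining sclera and trabecular meshwork. The pedigree segregates for a mutation in LTBP2, and the labels do not give the genotype of the cats that were sequenced. Since each condition has a single library, replicate error could not be estimated and no p-value was calculated, and all differences are between these 2 libraries. A larger share of lens cells and more RNA per lens cell cannot be told apart in such bulk samples.

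Lens fibre cells arise from the lens epithelium, elongate, lose their nuclei and organelles, and pack into a transparent tissue without blood vessels. They build a beaded filament, a type of intermediate filament made of filensin (BFSP1) and phakinin (BFSP2) that occurs in the lens and sits beside vimentin. Their membranes are rich in aquaporin-0 (MIP), a water channel and adhesion protein, in LIM2 (MP20), a small membrane protein of the PMP22 family, and in gap junction channels that contain Cx46 (GJA3), a connexin, through which cells without a blood supply share ions and metabolites. Mutations of each of these genes are known causes of hereditary cataract.

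Values are FPKM, which count sequenced fragments relative to exon length and library size and can be compared between genes. Their sum was 649113 for the normal and 672893 for the affected library. The steps between low values gave scales of about 70800000 and 67600000 fragments, so that 1 fragment on 1 kilobase of effective length was worth 0.0141 FPKM in the normal cat and 0.0148 FPKM in the affected cat. The table lists 0 for 35 loci whose other value is 10 FPKM or more, so a 0 is not read as absence. No member was listed at 0.

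The 4 members were each higher in the affected cat. Their summed level was 210.7 FPKM in the normal cat and 844.6 FPKM in the affected cat, a ratio of 4.01. All 4 were 2-fold or more above normal on the log2(FPKM + 1) scale, where 8.14% of the 16676 loci that reached 1 FPKM in either cat were 2-fold or more above normal. None was 2-fold or more below normal, against 8.75% of those loci. BFSP1 alone was 4-fold or more above normal, against 1.68% of the loci, and 1.79% of the loci were 4-fold or more below normal. The median log2 ratio, affected over normal after addition of 1 FPKM, was 1.68 for the members and -0.0047 for all loci past that minimum. All 4 members passed the minimum in both libraries. Every count of genes past 2-fold is on this scale, where the added 1 FPKM keeps some low genes short of 2-fold whose FPKM differ by more.

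**Figure D1:**
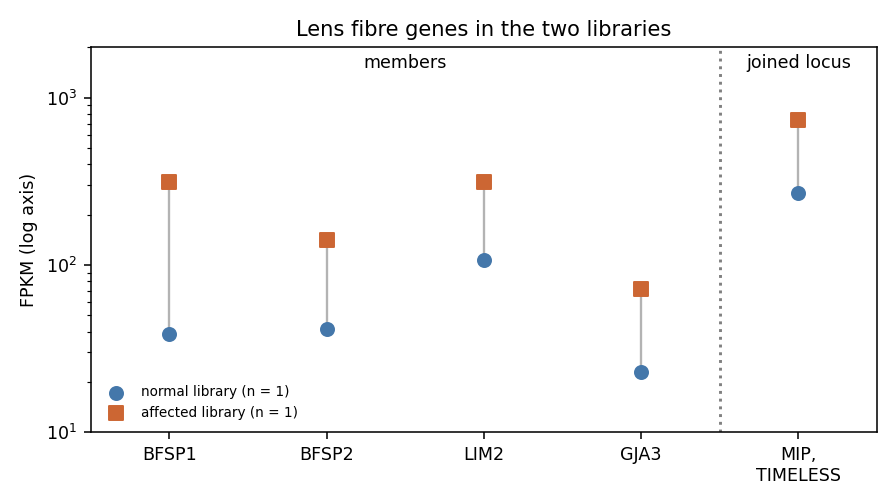
Levels of the 4 members and of the joined MIP,TIMELESS locus in the normal cat (circles) and the affected cat (squares), in FPKM on a log axis, with 1 library per condition and so no error bars. The 4 members and the joined locus are each higher in the affected cat, from 72.1 FPKM for GJA3 to 738.4 FPKM for the joined locus.

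Of the beaded filament pair, BFSP1 encodes filensin, the longer of its 2 subunits. It is listed as locus XLOC_005630 on chromosome A3 of felCat5, from 42533684 to 42567015. BFSP1 stood at 38.4 FPKM in the normal cat and 315.5 FPKM in the affected cat, a ratio of 8.21 and a log2 ratio of 3.004. Only 77 of the 16676 loci had a higher log2 ratio. Among the 708 loci with a mean level within 2-fold of its own, its log2 ratio exceeded 97.9%.

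BFSP2 encodes phakinin, which assembles with filensin into the beaded filament. It is locus XLOC_018072 on chromosome C2, from 128361440 to 128430287. BFSP2 stood at 41.5 FPKM in the normal cat and 141.9 FPKM in the affected cat, a ratio of 3.42 and a log2 ratio of 1.75. That log2 ratio exceeded 95.7% of the 1471 loci of similar mean level.

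The balance between the transcripts of the 2 filament subunits differed between the libraries, and protein was not measured. BFSP1 stood at 0.926 times the level of BFSP2 in the normal cat and at 2.22 times in the affected cat. Exact 95% intervals from fragment counting, calculated as if each transcript had 1 kilobase of effective length, were 0.878 to 0.976 and 2.17 to 2.28. Such intervals cover counting error only and not the variation between cats, and transcript lengths are not given in the table. A ratio within a library does not depend on the scaling between libraries.

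LIM2 encodes MP20, an abundant membrane protein of fibre cells. It is locus XLOC_025850 on chromosome E2, from 6622054 to 6631220. LIM2 stood at 107.7 FPKM in the normal cat and 315.2 FPKM in the affected cat, a ratio of 2.93 and a log2 ratio of 1.54. It was the highest member of the normal library, and its log2 ratio was the lowest among the 4 members. Among 598 loci of similar mean level its log2 ratio exceeded 92.3%.

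GJA3 encodes Cx46, a subunit of the gap junctions between fibre cells. It is locus XLOC_000813 on chromosome A1, from 1115307 to 1124332. GJA3 stood at 23.1 FPKM in the normal cat and 72.1 FPKM in the affected cat, a ratio of 3.12 and a log2 ratio of 1.60. It was the lowest member in both libraries, and its log2 ratio exceeded 96.4% of 2949 loci of similar mean level.

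MIP encodes aquaporin-0, the major intrinsic protein of the fibre membrane. The joined locus MIP,TIMELESS, XLOC_013469, covers chromosome B4 from 85313463 to 85349062. It stood at 268.1 FPKM in the normal cat and 738.4 FPKM in the affected cat, a ratio of 2.75 and a log2 ratio of 1.46. TIMELESS encodes a protein of the replication fork, and the share of each gene in this value was not analysed here. In the RefSeq annotation of a later cat assembly, F.catus_Fca126_mat1.0, MIP and TIMELESS are separate neighbours that do not overlap. A second, unnamed locus with the same span was listed at 15.7 FPKM in the normal cat and 62.3 FPKM in the affected cat.

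**Figure D2:**
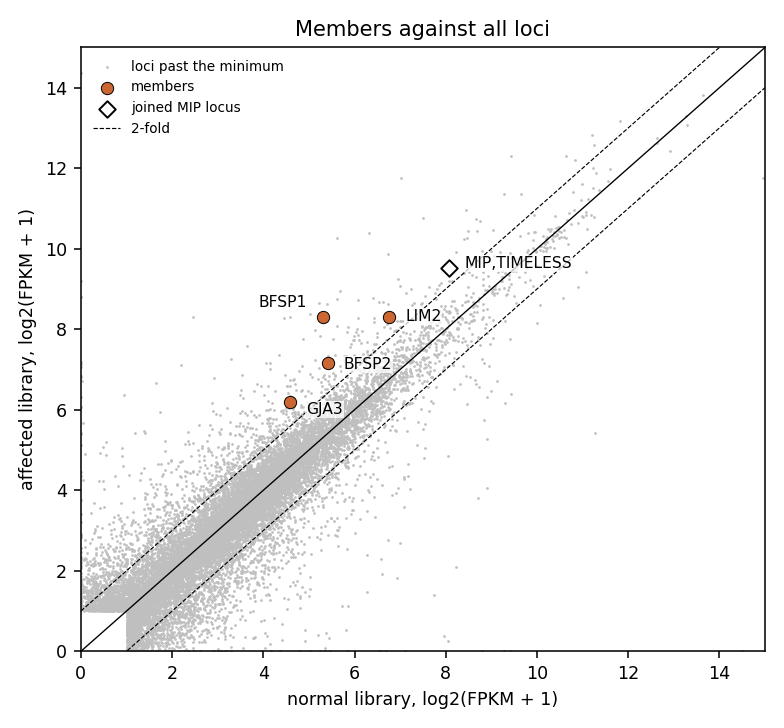
Levels of all 16676 loci past the minimum in the normal cat (x axis) and the affected cat (y axis), both as log2(FPKM + 1), with members as filled circles, the joined MIP,TIMELESS locus as a diamond, the line of equality (solid) and the 2-fold lines (dashed). The 4 members and the joined locus lie above the upper dashed line, with BFSP1 farthest from it.

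The order of the members differed between the libraries in the place of BFSP1. In the normal library it was LIM2, BFSP2, BFSP1 and GJA3, from the highest to the lowest. In the affected library BFSP1 and LIM2 stood together at the top, with a ratio of 1.001 (0.982 to 1.02 from counting error on 1 kilobase), followed by BFSP2 and GJA3. Among the 16676 loci BFSP1 moved from rank 2263 to rank 266, and LIM2 from rank 705 to rank 267. BFSP2 moved from rank 2084 to rank 600, and GJA3 from rank 3833 to rank 1193. BFSP1 and BFSP2, next to each other in the normal cat, were close, and without replicates it is not known whether that order would hold in other cats.

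The proportions of LIM2, BFSP2 and GJA3 to one another differed less between the libraries than their proportions to BFSP1. The level of BFSP2 relative to GJA3 was 1.80 in the normal cat and 1.97 in the affected cat. For LIM2 relative to GJA3 these values were 4.67 and 4.37. For LIM2 relative to BFSP2 they were 2.59 and 2.22. Each of these 3 ratios thus differed by at most 1.17-fold between the libraries, whereas the ratio of BFSP1 to BFSP2, GJA3 and LIM2 differed by 2.402-fold, 2.63-fold and 2.80-fold. Relative to the joined MIP,TIMELESS locus, LIM2 stood at 0.402 in the normal cat and 0.427 in the affected cat, GJA3 at 0.0860 and 0.0976, and BFSP2 at 0.155 and 0.192. These ratios differed between the libraries by 1.06-fold, 1.13-fold and 1.24-fold, and for each the counting intervals of the libraries did not overlap.

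As a share of the summed level of the 4 members, BFSP1 made up 18.2% in the normal cat and 37.4% in the affected cat. LIM2 made up 51.1% and 37.3%, BFSP2 19.7% and 16.8%, and GJA3 10.9% and 8.53%. The share of BFSP1 was the only one that was larger in the affected cat.

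**Figure D3:**
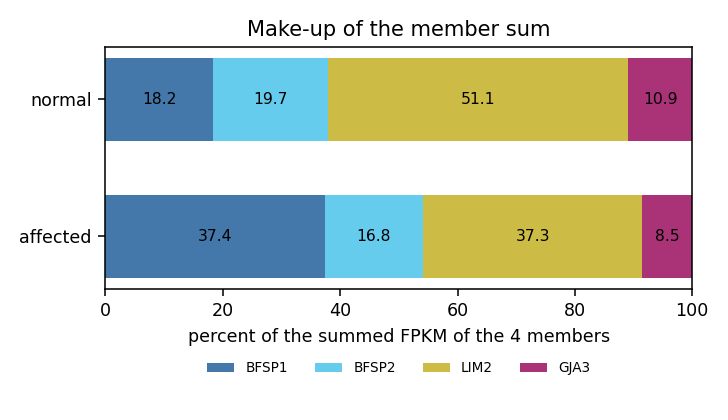
Share of each member in the summed FPKM of the 4 members, in percent, for the normal library (upper bar) and the affected library (lower bar), with 1 library each. BFSP1 takes 18.2% of the normal and 37.4% of the affected bar, and LIM2 takes 51.1% and 37.3%.

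GJA3 differed in direction from most other connexins that were analysed. Of 19 connexin genes besides GJA3, 13 were listed by name and 8 passed the minimum. None of the 8 was 2-fold or more above normal and 5 were 2-fold or more below normal, with a median log2 ratio of -1.56, all after addition of 1 FPKM. That median depended on the treatment of low values, and was -0.60 over all 13 with no minimum and -2.08 with a pseudocount of 0.1. GJA1, the widespread Cx43 that lens epithelium and many ocular tissues express, stood at 682.7 FPKM in the normal cat and 216.6 FPKM in the affected cat. GJA3 thus amounted to 0.0338 of the GJA1 level in the normal and 0.333 in the affected cat, a 9.85-fold difference in their balance. GJB2, Cx26 of epithelia, stood at 19.1 and 3.30 FPKM, and GJA4, an endothelial connexin, at 7.44 and 1.09 FPKM. GJA5, at 4.40 and 0.665 FPKM, and GJB5, at 1.96 and 0.0730 FPKM, were the remaining genes past 2-fold. GJB1, Cx32, was the only one of the 8 with a value above normal, at 0.523 and 1.81 FPKM, a ratio of 3.46 in FPKM that falls short of 2-fold after the addition. GJC3, at 1.07 and 0.367 FPKM, falls short in the other direction.

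The relatives of the beaded filament proteins did not share one direction. Of 13 other intermediate filament genes 12 were listed and 11 passed the minimum, with 2 past 2-fold above normal, 1 past 2-fold below normal and a median log2 ratio of -0.48, or -0.25 with no minimum. VIM, the vimentin that lens cells carry beside the beaded filament, stood at 1647 FPKM in the normal cat and 1105 FPKM in the affected cat. BFSP1 amounted to 0.0233 of the VIM level in the normal cat and to 0.285 in the affected cat, and BFSP2 to 0.0252 and 0.128. SYNM, which encodes synemin, stood at 11.4 and 33.7 FPKM and PRPH, the peripherin of peripheral neurons, at 0.816 and 4.98 FPKM. LMNB1, which encodes the nuclear lamin B1, stood at 37.2 and 7.43 FPKM and was the gene past 2-fold in the other direction on this scale. Short of 2-fold only through the added 1 FPKM were LMNB2, which encodes lamin B2, at 13.8 and 6.58 FPKM, and NEFM, a neurofilament gene, at 1.94 and 4.28 FPKM.

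LIM2 likewise stood apart in value from the genes of its protein family. Of 6 PMP22 and EMP family genes 5 were listed and 4 passed the minimum, and all 4 had lower values in the affected cat, with 2 past 2-fold below normal and a median log2 ratio of -1.21. EMP1, an epithelial membrane protein, stood at 142.3 FPKM in the normal cat and 19.6 FPKM in the affected cat, and EMP3 at 88.6 and 32.0 FPKM. PMP22, the peripheral myelin protein, stood at 88.3 and 59.5 FPKM, and EMP2, short of 2-fold only through the added 1 FPKM, at 34.2 and 16.9 FPKM. Of 12 aquaporin genes other than MIP, 7 were listed by name and 4 passed the minimum, all at under 8 FPKM in both libraries, with none past 2-fold above normal, 1 past 2-fold below normal and a median log2 ratio of -0.50, or -0.041 with no minimum. AQP11, an intracellular channel, stood at 7.79 and 7.54 FPKM, and AQP3, a water and glycerol channel of epithelia, at 5.84 and 1.21 FPKM. The other 2 fall short of 2-fold only through the added 1 FPKM, AQP4, a water channel of glia, at 0.186 and 1.36 FPKM and AQP10 at 1.82 and 0.443 FPKM.

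Other genes of lens fibre differentiation were mostly nearer to equal levels. Of 20 such genes 16 were listed and 15 passed the minimum, with 3 past 2-fold above normal, none past 2-fold below normal and a median log2 ratio of 0.44. Of these 15 genes, 14 had higher values in the affected cat, the direction of the members. TDRD7, a granule protein of fibre cells, stood at 22.4 FPKM in the normal cat and 84.4 FPKM in the affected cat. LGSN, which encodes lengsin, a fibre protein related to glutamine synthetase, stood at 0.0334 and 18.0 FPKM, where the normal value lies near that of a few fragments. BIRC7, which encodes an inhibitor of apoptosis, stood at 1.88 and 6.24 FPKM. Short of 2-fold through the added 1 FPKM, DNASE2B, the nuclease that degrades fibre cell DNA, stood at 0.740 and 2.12 FPKM. Below 2-fold, HSPB1, a small heat shock protein, stood at 219.5 and 433.0 FPKM, TMOD1, which caps actin filaments, at 7.67 and 14.6 FPKM, and CDH2, the N-cadherin of lens cells, at 53.5 and 66.1 FPKM.

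Among 10 lens transcription factors 5 were listed and 4 passed the minimum, with 1 past 2-fold above normal and a median log2 ratio of 0.90. HSF4, a heat shock factor required in fibre cells, stood at 22.4 FPKM in the normal cat and 55.1 FPKM in the affected cat. PROX1, a regulator of fibre elongation, stood at 8.20 and 15.1 FPKM and PAX6, which the ciliary body and retina also express, at 147.8 and 211.0 FPKM. MEIS1, at 20.8 and 42.3 FPKM, falls short of 2-fold only through the added 1 FPKM. SOX2 was listed at 0 in both libraries, which is not read as absence. MAF, SOX1, PITX3, FOXE3 and SIX3 had no locus under these names, so their levels are not known.

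Relative to the crystallins, the soluble proteins that fill the fibre cell, the 4 members summed to 0.353% of 12 crystallin genes in the normal cat and to 1.48% in the affected cat. The table gives CRYAA 22978 FPKM in the normal cat but 0 in the affected one, and without it the normal share was 0.573%. Of the 12, 6 were past 2-fold above normal, with the smallest fold for CRYBA4, at 2428 and 6128 FPKM, and the largest for CRYGB, at 128.7 and 3474 FPKM. CRYAA alone was past 2-fold below normal, through a 0 that is not read as absence. The list had a median log2 ratio of 1.09, or 1.34 without CRYAA. Among those short of 2-fold, CRYAB stood at 10017 and 8592 FPKM, CRYBA1 at 12676 and 14523 FPKM, and CRYBB3 at 2988 and 3269 FPKM.

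The genes next to the members on their chromosomes all differed by less than the members did in that direction. BFSP1 lies between PCSK2, at 0.592 FPKM in the normal cat and 1.09 FPKM in the affected cat, and DSTN, at 179.8 and 201.9 FPKM. BFSP2 lies between CDV3, at 74.97 and 71.7 FPKM, and TMEM108, at 3.62 and 6.58 FPKM, with a gap of 2305 bases to the latter. NKG7 follows LIM2 after 6555 bases, at 0.374 and 0.246 FPKM. GJA3 lies between ZMYM2, at 20.3 and 21.7 FPKM, and GJB2, a connexin gene at 19.1 and 3.30 FPKM. None of these adjacent genes was 2-fold or more above normal. Past the joined MIP,TIMELESS locus, GLS2, a glutaminase gene, was so, at 5.86 and 13.0 FPKM. The only locus that overlaps a member is an unnamed one with the span of GJA3, at 1.02% of its level in the normal cat and 0.943% in the affected cat.

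The genes nearest to each member in level over the 2 libraries were found by distance on the log2(FPKM + 1) scale, and 2 libraries are too few to read more than similar levels from it. For BFSP1 these were HS3ST2, KCNK1 and PRPH2 at distances of 0.29 to 0.38. For BFSP2 they were TOB1, C1QA and GALNT10 at 0.029 to 0.10. For LIM2 they were PIP5K1B, IGF2 and UNC119 at 0.072 to 0.27. For GJA3 they were IMPDH1, ZIC2 and BCKDHB at 0.12 to 0.14.

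The lens and the neural retina are not in the description of the dissected piece, yet genes of both were listed in both libraries, and markers of several tissues differed between the libraries beside the members. Of 11 rod photoreceptor genes 8 were listed, none at 0, and all 8 were 2-fold or more above normal, with a summed level of 335.8 FPKM in the normal cat and 1563 FPKM in the affected one. Of 10 other neural retina genes 9 were listed, none at 0, with 3 past 2-fold above normal and a median log2 ratio of 0.65. Their summed levels were 672.0 and 2470 FPKM, of which GLUL, the glutamine synthetase of glia, held 346.6 and 1981 FPKM, and without it, a removal chosen after the values were seen, they were 325.4 and 489.1 FPKM. Of 8 ciliary epithelium genes 7 were listed, none at 0, with summed levels of 1912 and 6430 FPKM and 5 past 2-fold above normal.

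In the other direction, 9 of 10 corneal and conjunctival epithelium genes were listed, none at 0, and all 9 were 2-fold or more below normal, with summed levels of 1077 and 105.7 FPKM. KRT12, the keratin that defines corneal epithelium, stood at 299.1 FPKM in the normal cat and 3.27 FPKM in the affected cat. Of 8 pigment cell genes 7 were listed, none at 0, with summed levels of 2371 and 1644 FPKM and 2 past 2-fold below normal. For the labelled tissue, 7 of 8 trabecular meshwork and angle genes were listed, none at 0, with summed levels of 755.0 and 426.7 FPKM, 3 past 2-fold above normal, 4 past 2-fold below normal and a median log2 ratio of -1.58. MYOC, the gene of myocilin, stood at 149.7 and 301.5 FPKM. The part of these tissues in the levels of the members was not tested.

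**Figure D4:**
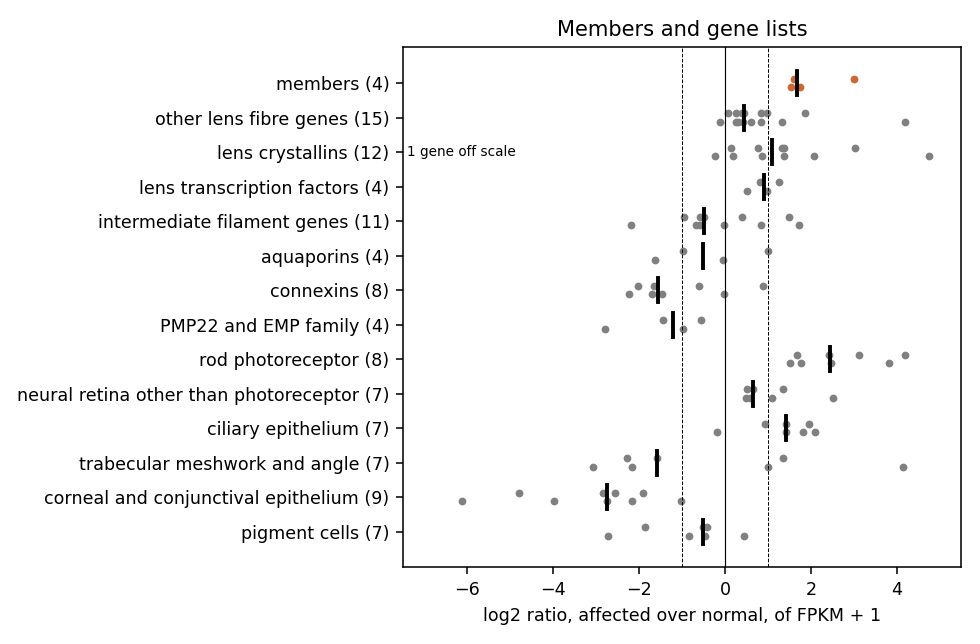
Log2 ratio, affected over normal after addition of 1 FPKM, of each gene past the minimum (points) and the median of each list (bars), for the members and 13 comparison lists with the number of genes used in parentheses, where dashed lines mark 2-fold and CRYAA, listed at 0 in the affected cat, is off scale. The members have a median of 1.68, rod photoreceptor genes 2.45, ciliary epithelium 1.43, connexins -1.56 and corneal and conjunctival epithelium -2.75.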

How the data were processed

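Per the labels and the methods, the authors mapped reads with TopHat 2.0.9 to the felCat5 build and calculated FPKM per locus with Cufflinks 2.1.1. These deposited FPKM, 1 value per library and locus, were used without rescaling. Filters and the scaling between libraries are not given in the sources used here. FPKM are not counts and each condition has 1 library, so no test was run.

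Log2 ratios used a pseudocount of 1 and loci that reached 1 FPKM in either cat, which understates differences of low genes. A repeated name took the row with the higher mean. Start positions were written 1-based. Fragment scales were fitted at 1497 unnamed loci for the normal and 1265 for the affected library, where 97.0% and 95.8% of values lay within 0.03 of a whole fragment. Intervals are exact binomial at 95%.

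Members and gene lists were chosen with earlier results of these data known. Named are the members, their relatives, chromosomal neighbours and the 3 genes nearest in level. The crystallins and the marker lists of other tissues are given by counts with single genes as examples, although the rule would name every listed gene past 2-fold. No protein or promoter sequence was used. Python 3.11.15, numpy 2.4.6, pandas 2.3.3, scipy 1.17.1 and matplotlib 3.10.9 were used. Alternatives were another pseudocount, rescalings, minimums and a 4-fold threshold. Values of some single genes are not reported here.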

Additional observations from a re-analysis of the deposited data

How the results depend on the processing

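Only 3 of the alternatives, a pseudocount of 0.1 and both rescalings, can change the log2 ratio of a member, and all 12 values under them lay past 2-fold in the affected direction. Over these and the value as reported, the log2 ratios ranged from 2.96 to 3.03 for BFSP1, 1.71 to 1.77 for BFSP2, 1.49 to 1.55 for LIM2 and 1.57 to 1.64 for GJA3. With a 4-fold threshold 1 member, BFSP1, remained past it, with 280 loci higher and 298 lower, against 1358 and 1459 at 2-fold. With a mean of at least 5 FPKM, which tests fewer loci, 815 and 691 loci were past 2-fold. Loci past 2-fold numbered 1992 higher and 2173 lower with the smaller pseudocount, and 1568 and 1946 after both libraries were set to one sum, so the share past 2-fold above normal was 11.9% and 8.54% in place of 8.14%, and that below normal 13.03% and 10.6% in place of 8.75%. With the joined MIP,TIMELESS locus as a further member, an alternative added after the data were seen, the members' median was 1.60. Without CRYAA the members made up 0.573% of the normal crystallin sum in place of 0.353%. Of the recomputed list medians 20 moved by more than the widest counting error of a member, and none of these changed sign. The connexin median of -1.56 was -2.08 with a pseudocount of 0.1, -0.60 with no minimum and -1.94 when the mean had to reach 5 FPKM. The aquaporin median of -0.50 was -0.94 with that pseudocount and -0.041 with no minimum, and that of intermediate filament genes, -0.48, was -0.25 with no minimum. The minimum sets which low genes enter these medians. Without replicates no alternative bears on the variation between cats. No paired analysis was possible because the conditions hold a single library apiece.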
